A study of Mus musculus with 18 samples.

Results

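Small RNAs cut from transfer RNAs (tsRNAs) were counted in mouse lung from a smoke model of chronic obstructive pulmonary disease (COPD) and from control lung. The comparison used 6 of the 18 libraries of the study: 3 libraries of the COPD model and 3 of the control, with every one of the 193 tsRNAs that the deposited table lists. Mice of the COPD model had been exposed to cigarette smoke, had also received cigarette smoke extract by intraperitoneal injection, and were then given phosphate-buffered saline. Control mice received saline. A further 3 lung libraries, from model mice given mesenchymal stem cells (BMSCs) by tail vein, entered the models only as part of the shared estimate of the spread. The sources used here give neither strain, sex, age and length of exposure nor whether each library came from its own mouse, so the p-values measure the spread between these libraries. In bulk tissue, fewer cells of a type and less RNA per cell cannot be told apart.

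A tRNA is transcribed with a leader and a trailer, which RNase P and the RNase Z enzyme ELAC2 remove, and the mature tRNA can itself be cut. Angiogenin and related nucleases cut in the anticodon loop of stressed cells and give tiRNAs, while cuts elsewhere give shorter fragments named tRFs. The table sorts the 193 tsRNAs into 9 structural types. The 5′ fragments of mature tRNAs made up 143 of them: 17 tRF-5a, 10 tRF-5b, 84 tRF-5c and 32 tiRNA-5. For nuclear tRNAs this is the order of increasing reach towards the anticodon loop. Among mitochondrial 5′ fragments, 12 ended past the first anticodon base, where tiRNA-5 end. Fragments from the 3′ end numbered 11 tRF-3a, 3 tRF-3b and 3 tiRNA-3, and 6 were internal tRF-2. The remaining 27 were tRF-1, the trailer that is left over when the 3′ end of a precursor is trimmed, of which 25 were nuclear and 2 mitochondrial. Of the 25 nuclear trailers, 22 ended in a run of at least 3 T, the signal at which RNA polymerase III stops. Nuclear tRNAs gave 147 of the tsRNAs and mitochondrial tRNAs gave 46. Lengths ran from 14 to 40 nt.

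The fragments on which the results turn are shown first, as they are written in the deposited table. The trailers of initiator methionine tRNA start at the same base and differ by 1 base, and capitals mark their closing T run.
tRF-+1:T15-iMet-CAT-1: tcggaggctttgTTT
tRF-+1:T16-iMet-CAT-1: tcggaggctttgTTTT
The fragments of mitochondrial glutamate and glutamine tRNA lie at the 5′ end of the mature tRNA, far short of the anticodon. Capitals mark the fragment within the mature tRNA, to which CCA has been added. The genes are TrnE at MT:14071-14139 and TrnQ at MT:3772-3842 in RefSeq (GRCm38.p6, the same assembly as mm10).
tRF-1:16-chrM.Glu-TTC: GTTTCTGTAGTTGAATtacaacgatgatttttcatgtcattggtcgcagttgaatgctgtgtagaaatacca
tRF-1:22-chrM.Gln-TTG: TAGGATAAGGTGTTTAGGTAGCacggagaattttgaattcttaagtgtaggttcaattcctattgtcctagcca
Mitochondrial serine tRNA (TrnS2, MT:11613-11671) lacks the D arm, so that its anticodon, in capitals, sits close to the 5′ end and the fragment of 22 nt ends with it.
tRF-1:22-chrM.Ser-GCT: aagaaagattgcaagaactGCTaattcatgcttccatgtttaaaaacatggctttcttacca
The 5′ fragments of glycine tRNA Gly-GCC-2 held most of the counts. They differ only in where they end, and capitals mark the bases from position 30 on, counted from the 5′ end. The fragment of 33 nt ends on the first base of the anticodon GCC.
tRF-1:30-Gly-GCC-2-M3: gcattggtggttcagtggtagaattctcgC
tRF-1:31-Gly-GCC-2-M3: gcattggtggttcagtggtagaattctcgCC
tRF-1:32-Gly-GCC-2-M3: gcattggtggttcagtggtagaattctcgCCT
tiRNA-1:33-Gly-GCC-2-M3: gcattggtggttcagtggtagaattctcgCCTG

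The listed tsRNAs took up 440448 to 1151403 counts per library in the COPD model and 618572 to 1654396 in the control. COPD model 3 and control 2 were the shallowest of their groups and stood apart from the other 4 libraries. Their listed tsRNAs covered 49.3% and 42.6% of the mapped reads of each library, against 58.6% and 65.5% in the other COPD model libraries and 61.7% and 67.9% in the other control libraries. Mitochondrial tRNAs gave 11.1% of the listed counts in COPD model 3 and 19.0% in control 2, against 5.57% to 6.48% in the other 4. Values are therefore given for each library, and many of those that COPD model 3 moves are also given without it or without the shallowest library of each group, which leaves out COPD model 3, control 2 and BMSC-treated library 2. The scaling (TMM) factors of these libraries were 1.33 and 1.74, against 0.737 to 1.03 in the other 4, and the median log2 change over the 191 tsRNAs tested was 0.21 with them, against 0.08 with library totals and 0.03 with library size alone.

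No single tsRNA passed the threshold of an adjusted p of 0.05 in the COPD model against control. The quasi-likelihood test of edgeR, with Benjamini-Hochberg adjustment, called 0 of the 191 tsRNAs that passed its filter on low counts (0%), while 11 had an unadjusted p under 0.05 (5.76%), with a log2 change above 0 for 9 (4.71%) and below 0 for 2 (1.05%). DESeq2 called 3 tsRNAs, the initiator methionine trailers of 15 and 16 nt and the mitochondrial glutamate fragment of 16 nt. Of all 193 tsRNAs, 10 had every COPD model library above every control library (5.18%) and 10 had every one below (5.18%). The 9 with a value above 0 were all nuclear and 8 of them were trailers. The 2 below 0 were 5′ fragments of mitochondrial tRNAs. Without COPD model 3 the count at an unadjusted p under 0.05 was 3, with 2 above 0 and 1 below, and without the shallowest library of each group it was 15, with 7 above 0 and 8 below. Levels are given in CPM, the counts scaled by the authors to the mapped reads of each library.

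**Figure D1:**
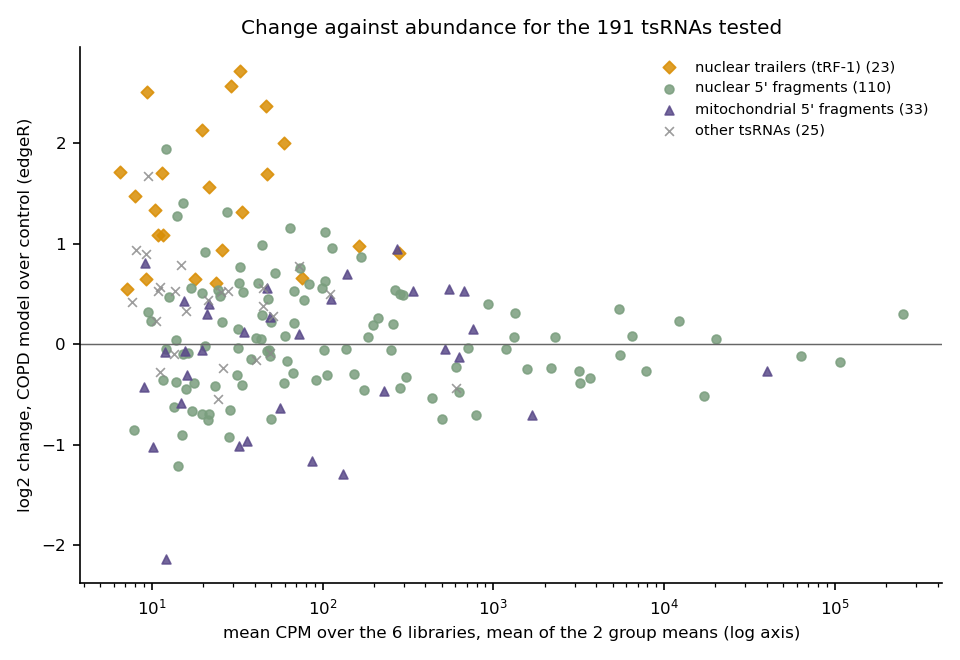
Log2 change in the COPD model over control (edgeR, vertical axis) against mean abundance in CPM (horizontal log axis) for the 191 tsRNAs tested, one point each, by kind of fragment. All 23 nuclear trailers tested lie above 0, and the largest decrease, at -2.14, is a mitochondrial 5′ fragment.

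Trailers of initiator methionine tRNA, the tRNA that starts protein synthesis, were the clearest difference. The trailer of 15 nt, tRF-+1:T15-iMet-CAT-1, had 24.5, 51.5 and 94.1 CPM in COPD model 1, 2 and 3, against 4.97, 12.4 and 9.70 CPM in control 1, 2 and 3. That of 16 nt, tRF-+1:T16-iMet-CAT-1, had 25, 45.3 and 80.6 CPM in the COPD model libraries, against 9.95, 6.89 and 7.84 CPM in the control libraries. Every COPD model library lay above every control library for both. The log2 changes were 2.71 ± 0.73 and 2.57 ± 0.70 (SE), with adjusted p-values of 0.0603 for each in edgeR's test, which miss the threshold, and of 0.0150 and 0.00592 in DESeq2's. The raw counts behind them were 43, 100 and 84 in the COPD model and 11, 18 and 26 in the control for the first, and 44, 88 and 72 against 22, 10 and 21 for the second. Without COPD model 3 the log2 changes were 2.26 and 2.18, with adjusted p-values of 0.392 for each in edgeR's test.

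Fragments that start at the same base are nested and not independent, so their counts were also summed. Over 69 families that share their first 14 bases, edgeR called 2, both higher in the COPD model (2.9%), and 6 had an unadjusted p under 0.05 (8.7%). The groups did not overlap for 2 families with higher values in the COPD model (2.9%) and for 3 with lower values (4.35%). The family of the 2 initiator methionine trailers had summed values of 49.5, 96.8 and 175 CPM in the COPD model libraries, against 14.9, 19.3 and 17.5 CPM in the control libraries, with no overlap between the groups. It rose by 2.65 ± 0.63 on the log2 scale (SE), with an adjusted p of 0.00233 in edgeR's test. The call was lost without control 3, where the adjusted p was 0.131, and without the shallowest library of each group, where it was 0.176 at a log2 change of 2.11. With library size alone it was 0.592. Another trailer of this tRNA, of 14 nt and from another gene copy (tRF-+1:T14-iMet-CAT-1-7), did not share this pattern: it had 3.98, 4.63 and 24.6 CPM in the COPD model and 3.62, 15.2 and 3.36 CPM in the control.

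The other called family was the trailer of threonine tRNA Thr-CGT-1, and here a single library set the value. Its 5 fragments, of 29 to 33 nt, summed to 52.9, 43.2 and 756 CPM in COPD model 1, 2 and 3, against 16.3, 152 and 56.7 CPM in control 1, 2 and 3. COPD model 3 was far above the rest, and the other COPD model libraries lay within the range of the control. The log2 change was 2.02 ± 0.56 (SE) with an adjusted p of 0.0129 in edgeR's test, and it was -0.31 without COPD model 3. The call was also lost without control 1 (adjusted p = 0.507), without control 3 (0.308) and without BMSC-treated library 3 (0.249). Adjusted p-values were 0.753 with DESeq2, 0.988 with limma, 0.205 with library totals, 0.938 with library size alone, and 0.878 at a log2 change of 0.47 without the shallowest library of each group. Its single fragments showed the same: tRF-+1:T31-Thr-CGT-1 had 21.1, 15.4 and 244 CPM in the COPD model, against 3.62, 51 and 20.5 CPM in the control, a log2 change of 2.0 ± 0.81 (SE) that was -0.11 without COPD model 3. The fragments of 29 and 30 nt had log2 changes of 2.13 ± 0.93 and 2.36 ± 0.82 (SE), which were 0.10 and -0.26 without that library.

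**Figure D2:**
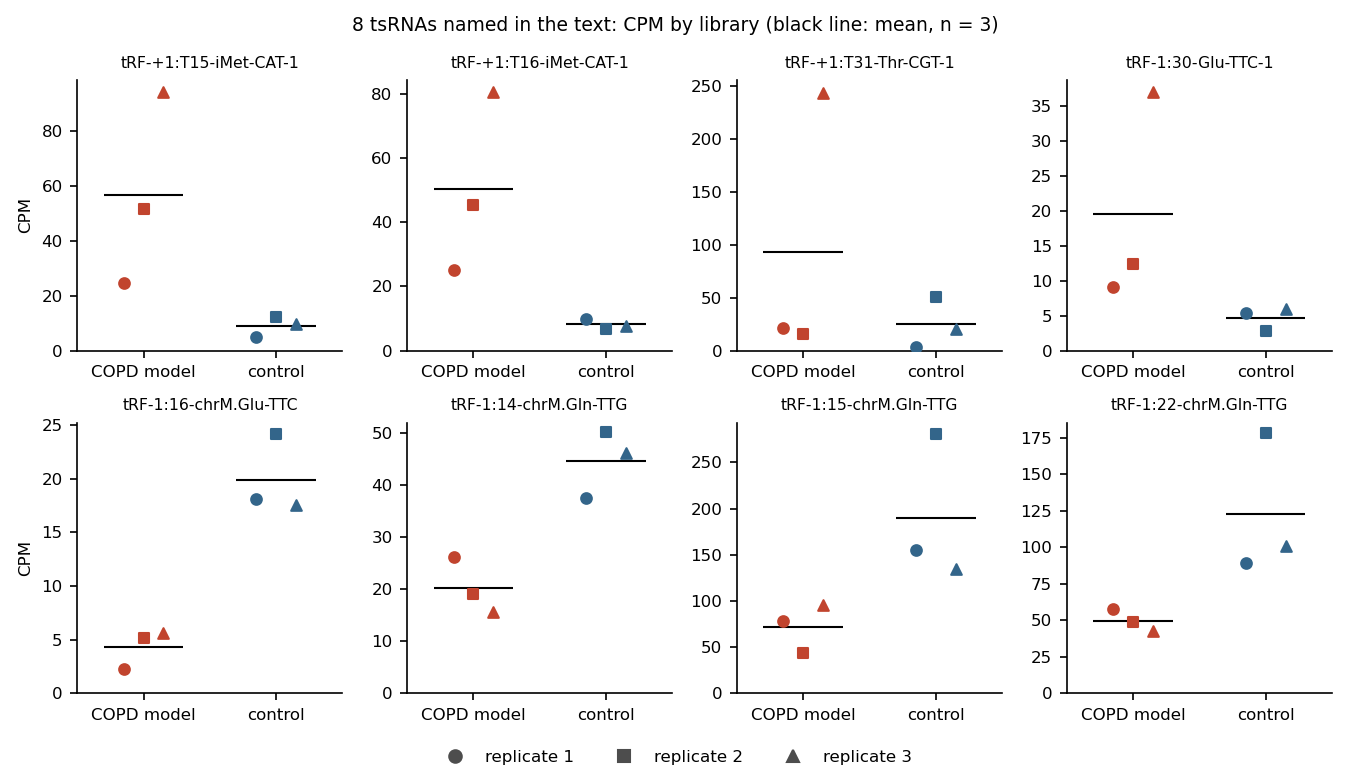
CPM by library for 8 tsRNAs, with the COPD model at the left and the control at the right of each panel, a marker for each replicate number and a black line at the mean (n = 3 each). The initiator methionine trailers, the glutamate tRNA fragment of 30 nt and the 4 mitochondrial fragments in the lower row separate the groups completely, whereas tRF-+1:T31-Thr-CGT-1 is high in COPD model 3 only, at 244 CPM.

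Nuclear trailers as a whole were highest in COPD model 3. The 25 nuclear trailers came from 9 kinds of tRNA, and all 25 had their highest value of the 6 libraries in COPD model 3, as did 74 of the 193 tsRNAs. Among the control libraries, 24 of the 25 were highest in control 2. Summed over all 25, trailers reached 554, 705 and 2764 CPM in the COPD model, against 355, 991 and 461 CPM in the control, so the 2 shallow libraries held the highest sum of each group. With no filter on low counts the log2 change lay above 0 for 25 of 25, with a median of 1.34, against 112 of all 193 and a median of 0.21. Without COPD model 3 it lay above 0 for 16 of the 23 that could be fitted, with a median of 0.24, against 111 of all 191 and a median of 0.08. Without the shallowest library of each group it lay above 0 for 16 of the 17 that could be fitted, with a median of 0.67, against 87 of all 184 and a median of -0.05. The list itself leans on that library: each tsRNA in the table reaches 20 CPM in at least 1 of the 9 lung libraries, and 22 of the 33 that do so in a single library do so in COPD model 3, including 12 nuclear trailers. The part that depth or RNA quality of COPD model 3 has in these values was not tested.

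Among the other trailers, the most abundant were those of arginine tRNA Arg-ACG-1-3. The trailer of 22 nt had 182, 206 and 684 CPM in the COPD model, against 135, 309 and 154 CPM in the control, and its log2 change was 0.91 ± 0.61 (SE; adjusted p = 0.901 in edgeR's test). That of 23 nt had a log2 change of 0.98 ± 0.61 (SE). Without COPD model 3 these were 0.18 and 0.24, and without the shallowest library of each group 0.38 and 0.53. The groups overlapped, with COPD model 1 and 2 below control 2 for both lengths. The trailer of 24 nt, for which the table records a mismatch near its end, had 12.5, 17 and 66.1 CPM in the COPD model and 4.07, 22 and 8.58 CPM in the control (log2 change 1.56 ± 0.75, SE, and 0.64 without COPD model 3). The trailer of 14 nt of serine tRNA Ser-AGA-2-2 had 3.41, 9.78 and 34.7 CPM in the COPD model and 2.26, 4.13 and 1.87 CPM in the control, with a log2 change of 2.50 ± 0.99 (SE) and an adjusted p of 0.569 in edgeR's test, and a log2 change of 1.44 without COPD model 3. COPD model 2 and 3 were above the control libraries there, and COPD model 1 was not. This trailer reached 20 CPM in COPD model 3 alone of the 9 lung libraries, so its place in the list leans on that library.

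**Figure D3:**
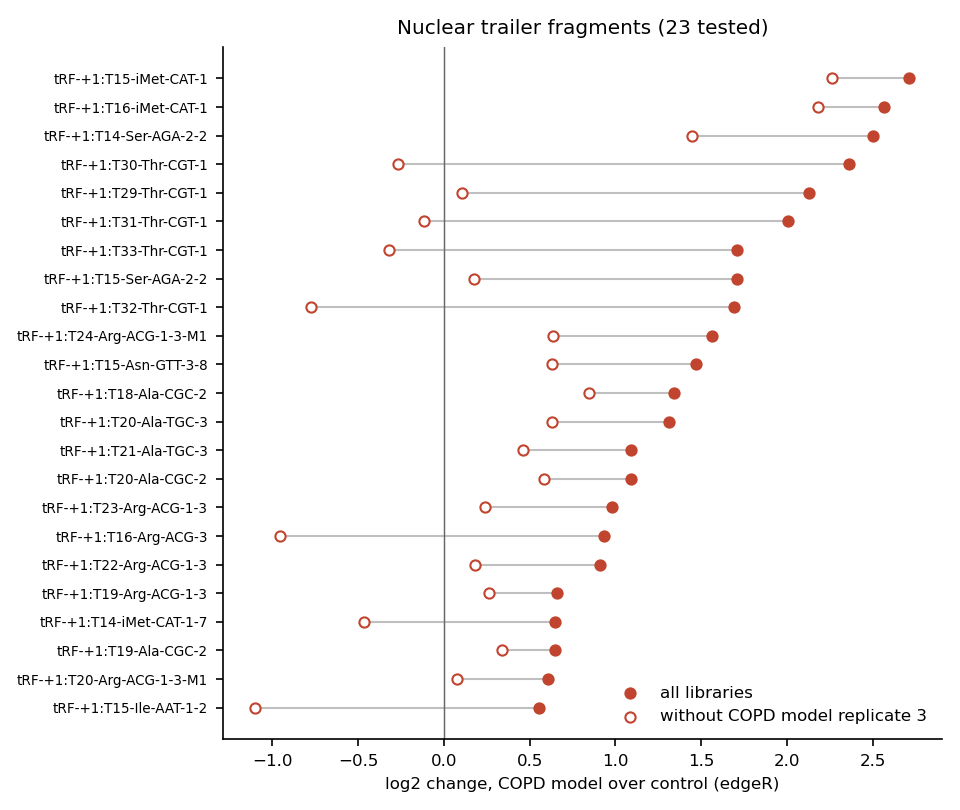
Log2 change in the COPD model over control for the 23 nuclear trailers tested, 1 row each, with all libraries (filled) and without COPD model replicate 3 (open). The initiator methionine trailers of 15 and 16 nt stay above 2 in both, while 7 trailers, 4 of them of Thr-CGT-1, move below 0.

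Of the 10 tsRNAs whose COPD model libraries all lay below the control libraries, 9 were 5′ fragments of mitochondrial tRNAs. Mitochondrial tRNAs are cut out of long transcripts that span many genes, and they serve the protein synthesis of the organelle. Of 33 mitochondrial 5′ fragments, 9 had every COPD model library below every control library and 1 had every one above, against 1 below and 7 above among the 110 nuclear 5′ fragments (all 193 tsRNAs, 5.18% in each direction). The 9 came from the tRNAs of glutamine (3 of 3 fragments), isoleucine (2 of 5), glutamate (1 of 1), proline (1 of 1), methionine (1 of 5) and serine GCT (1 of 9). In edgeR's test no one of them passed the threshold, DESeq2 called that of glutamate tRNA, and the median log2 change over all 33 was -0.05, since fragments of both serine tRNAs lay mostly above 0.

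The fragment of 16 nt of mitochondrial glutamate tRNA had the most negative change of all tsRNAs. It had 2.28, 5.15 and 5.60 CPM in COPD model 1, 2 and 3, against 18.1, 24.1 and 17.5 CPM in control 1, 2 and 3, and so 4.34 ± 1.80 CPM against 19.9 ± 3.64 CPM (mean ± SD, n = 3 each). The groups lay well apart, and the shallow libraries fell in with the others of their group. Its counts were small, at 4, 10 and 5 in the COPD model and 40, 35 and 47 in the control. The log2 change was -2.14 ± 0.76 (SE) with an adjusted p of 0.352 in edgeR's test and 0.0385 in DESeq2's.

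The 5′ fragments of mitochondrial glutamine tRNA, of 14, 15 and 22 nt, each had all COPD model libraries below all control libraries. That of 15 nt had 78.5, 43.2 and 95.2 CPM in the COPD model, against 155, 281 and 134 CPM in the control. That of 22 nt had 57.5, 48.9 and 42.6 CPM in the COPD model, against 89.5, 178 and 101 CPM in the control. That of 14 nt had 26.2, 19.0 and 15.7 CPM in the COPD model, against 37.5, 50.3 and 46.3 CPM in the control. The 3 nested fragments have the same start and are not independent of each other. Their log2 changes were -1.29 ± 0.62, -1.16 ± 0.59 and -1.01 ± 0.63 (SE), and their adjusted p-values in edgeR's test were 0.758, 0.758 and 0.866.

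Summed by parent tRNA, 0 of 48 classes passed the threshold (0%) and 3 had an unadjusted p under 0.05 (6.25%) in edgeR's test. These 3 were mitochondrial Glu-TTC at -2.14 ± 0.69, Thr-CGT at 2.02 ± 0.83 and mitochondrial Gln-TTG at -1.10 ± 0.48 on the log2 scale (SE), with adjusted p-values of 0.209, 0.442 and 0.442. DESeq2 called 1 class, mitochondrial Glu-TTC, at an adjusted p of 0.0140. The Gln-TTG class held 186, 135 and 174 CPM in the COPD model, against 299, 547 and 315 CPM in the control. No class had all COPD model libraries above the control (0%), and 3 had all below (6.25%): mitochondrial Glu-TTC, Gln-TTG and Pro-TGG. The next smallest p was that of Ala-TGC, at 1.26 ± 0.62 (SE; adjusted p = 0.442), whose only listed fragments are trailers. That class had 25.6, 44.3 and 116 CPM in the COPD model, against 14.9, 48.2 and 19.4 CPM in the control. COPD model 1 and 2 lay below control 2. Its trailer of 20 nt had a log2 change of 1.31, which was 0.63 without COPD model 3. The 6 most abundant classes, Gly-GCC, mitochondrial Ser-GCT, Glu-CTC, Lys-CTT, Glu-TTC and Gly-CCC, had log2 changes between -0.25 and 0.21 and overlapped.

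**Figure D4:**
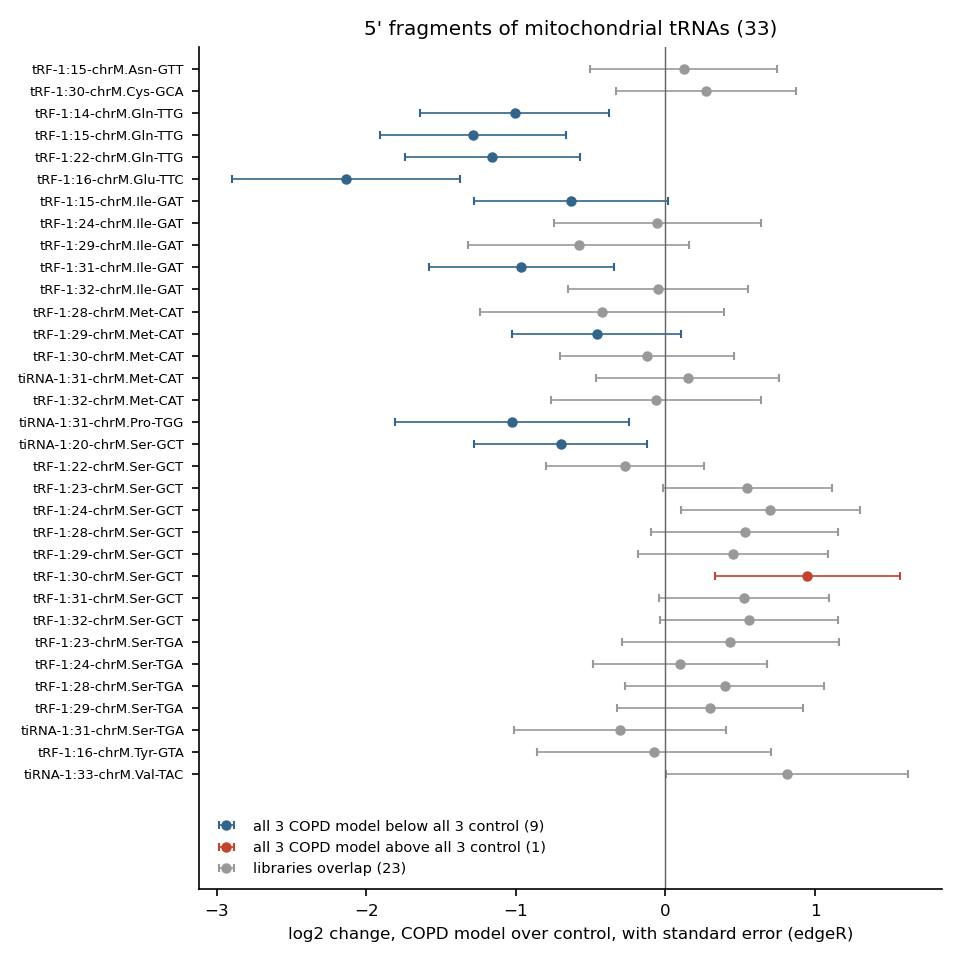
Log2 change in the COPD model over control with its standard error for the 33 5′ fragments of mitochondrial tRNAs, 1 row each. The 9 in blue have all 3 COPD model libraries below all 3 control libraries and the 1 in red has all above; the other 23 overlap.

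Mitochondrial serine tRNA Ser-GCT gave the most abundant mitochondrial fragment, and its fragments differed in direction. The fragment of 22 nt had 29934, 28774 and 46694 CPM in the COPD model, against 37549, 70455 and 28159 CPM in the control, with a log2 change of -0.27 ± 0.53 (SE; adjusted p = 0.936 in edgeR's test), and its values followed the shallow libraries in both groups. The tiRNA of 20 nt, which ends on the first anticodon base, had 1535, 1403 and 736 CPM in the COPD model, all below the 2052, 2566 and 1868 CPM of the control. The fragment of 30 nt had 261, 523 and 256 CPM in the COPD model, all above the 113, 239 and 240 CPM of the control. The log2 changes were -0.70 ± 0.58 for the tiRNA and 0.95 ± 0.62 for the fragment of 30 nt (SE), and neither passed the threshold. The fragment of 23 nt, 1 base longer than the main one, had 534, 611 and 749 CPM in the COPD model and 326, 631 and 440 CPM in the control (0.55 ± 0.57, SE).

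Among nuclear 5′ fragments, those of glutamate tRNA Glu-TTC lay mostly above 0. Of 14 such fragments 12 had a log2 change above 0, with a median of 0.76, against 54 of 110 and a median of -0.03 over all nuclear 5′ fragments. Many are nested and not independent, as the families of Glu-TTC-1 and Glu-TTC-2 hold 6 fragments each. The Glu-TTC-1 family summed to 397, 430 and 891 CPM in the COPD model, against 355, 189 and 517 CPM in the control. The Glu-TTC-2 family summed to 1212, 1371 and 1855 CPM in the COPD model, against 1307, 497 and 1800 CPM in the control. Both families overlapped between the groups and were highest in COPD model 3. The fragment of 30 nt of Glu-TTC-1 had 9.10, 12.4 and 37.0 CPM in the COPD model, against 5.43, 2.75 and 5.97 CPM in the control. Its groups did not overlap, and its log2 change was 1.94 ± 0.82 (SE) with an adjusted p of 0.639 in edgeR's test. Without COPD model 3 the log2 change was 1.25, and without the shallowest library of each group 0.87. Of the 9 lung libraries, COPD model 3 alone brought this fragment to 20 CPM, which each listed tsRNA reaches in at least 1. The fragments of 31 nt of Glu-TTC-1 and of 30 nt of Glu-TTC-2 also had every COPD model library above the control, at 54.6, 82.4 and 132 CPM against 50.2, 21.3 and 45.2 CPM in the control for the first. The second had 19.3, 22.1 and 40.3 CPM in the COPD model, against 17.6, 5.51 and 18.3 CPM in the control. It reached 20 CPM in COPD model 2 and 3 alone of the 9 lung libraries. The list leans on COPD model libraries for both fragments of 30 nt, and so do the counts that include them. Summed over all its fragments the Glu-TTC class differed little, at 0.21 ± 0.34 (SE), and its groups overlapped. The fragments of nuclear aspartate tRNA lay below 0 in 8 of 8, with a median of -0.42, but the 8 form 1 family with a shared start and are not independent. Their sum overlapped between the groups, at 252, 443 and 193 CPM in the COPD model against 401, 386 and 453 CPM in the control. The log2 change of the sum was -0.41 ± 0.50 (SE). Among them, tRF-1:29-Asp-GTC-3 had 7.97, 10.3 and 6.72 CPM in the COPD model, against 21.7, 11.7 and 26.9 CPM in the control (-1.22 ± 0.77, SE). COPD model 2 lay close to control 2 there. This fragment reached 20 CPM in control 1 and 3 alone of the 9 lung libraries, so its place in the list leans on the control. The tiRNA of 35 nt of leucine tRNA Leu-TAG-3 had 123, 102 and 190 CPM in the COPD model and 52.9, 101 and 52.2 CPM in the control, a log2 change of 1.11 ± 0.57 (SE) with COPD model 2 barely above control 2. A fragment of 16 nt of leucine tRNA Leu-AAG-1 had 51.2, 44.3 and 78.4 CPM in the COPD model, against 25.8, 33.1 and 32.5 CPM in the control, and the groups again did not overlap. Nuclear 5′ fragments with every COPD model library above every control library numbered 7 of 110, against 10 of all 193 tsRNAs (5.18%). The last of the 7 were of cysteine and lysine tRNA. tRF-1:32-Cys-GCA-1-M3 had 50.6, 50.5 and 48.2 CPM in the COPD model, against 33.5, 22 and 45.5 CPM in the control. tRF-1:31-Lys-CTT-3 had 89.9, 94.7 and 114 CPM in the COPD model, against 73.7, 38.6 and 85.8 CPM in the control. Further fragments with values below 0 were tRF-1:31-chrM.Ile-GAT (-0.96 ± 0.62), tiRNA-1:31-chrM.Pro-TGG (-1.02 ± 0.78) and tRF-1:23-Gly-ACC-1 (-0.92 ± 0.69), given as log2 change with SE, and the last of these overlapped between groups at 17.1, 30.9 and 7.84 CPM in the COPD model and 26.2, 16.5 and 70.9 CPM in the control. Without COPD model 3 these log2 changes were -0.74, -0.72 and -0.54.

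The 5′ fragments of Gly-GCC-2 made up the bulk of both groups, and their amount did not differ detectably. The fragment of 32 nt had 334145, 268352 and 216910 CPM in the COPD model, against 282919, 152316 and 248489 CPM in the control. The fragment of 31 nt had 120894, 98513 and 80133 CPM in the COPD model, against 140565, 75876 and 131961 CPM in the control. The groups overlapped for both, and the log2 changes were 0.30 ± 0.52 and -0.18 ± 0.53 (SE), with adjusted p-values of 0.936 and 0.946 in edgeR's test. The tiRNA of 33 nt had 14314, 22404 and 5147 CPM in the COPD model and 25448, 10193 and 25628 CPM in the control (-0.51 ± 0.59, SE, and -0.09 without COPD model 3), and was lowest in COPD model 3. The tiRNA of 34 nt of Glu-CTC-1, the next most abundant of its type, had 13461, 17186 and 7339 CPM in the COPD model and 9724, 13324 and 12258 CPM in the control (0.23 ± 0.56, SE, and 0.55 without COPD model 3).

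The lengths of the Gly-GCC-2 fragments separated the groups: relative to base 31, more of them ended at base 32 in every COPD model library. The counts of the 32-mer were 2.76, 2.72 and 2.71 times those of the 31-mer in COPD model 1, 2 and 3, against 2.01, 2.01 and 1.88 times in control 1, 2 and 3. These ratios do not depend on how libraries are scaled, and the shallow libraries gave the same values as the deep ones of their group. The means were 2.73 ± 0.0293 in the COPD model and 1.97 ± 0.0734 in the control (SD, n = 3 each). As shares of all Gly-GCC-2 5′ fragments, the 32-mer made up 62.3%, 59.7% and 58.3% in the COPD model, against 51.6%, 54.7% and 51.8% in the control. The 31-mer made up 22.5%, 21.9% and 21.5% in the COPD model, against 25.6%, 27.2% and 27.5% in the control. Neither share overlapped between the groups.

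This ratio was picked out after its values had been seen, so it was set among all 63 pairs of 5′ fragments of the same tRNA that differ by 1 base. limma on the log2 ratios called 0 of 63 (0%) and gave 5 an unadjusted p under 0.05 (7.94%). The pair of Gly-GCC-2 had the smallest p, with a log2 difference of 0.47 ± 0.11 (SE) and an adjusted p of 0.0539, which misses the threshold. The log2 difference was 0.44 to 0.49 with any 1 library left out. Its adjusted p was 0.0596 to 0.362 with a COPD model or control library left out, among them 0.117 without COPD model 3. It was past the threshold in the model with only the 6 COPD model and control libraries (adjusted p = 0.0143). The same held with only pairs of at least 10 counts in every library (0.0184). So did the models without the shallowest library of each group (0.00486) and without BMSC-treated library 2 (0.00173). The threshold was missed with a replicate block (0.0798) and without BMSC-treated library 1 (0.104). Leaving out BMSC-treated library 3 also missed it. Without COPD model 2, limma called 2 other pairs, both lower in the COPD model, the 33-mer over the 32-mer of Gly-GCC-1 and of Gly-GCC-2 (adjusted p = 0.0380 each). An exact two-sided permutation test of 3 against 3 libraries cannot go below 0.1. Pairs with every COPD model library above every control library numbered 3 of 63 (4.76%), and 4 of 63 had every one below (6.35%). The related tRNA Gly-GCC-1 was among the 3, with ratios of 2.9, 3.03 and 2.63 in the COPD model and 2.39, 2.22 and 2.28 in the control (adjusted p = 0.681 with limma). The last of them was the 23-mer over the 22-mer of mitochondrial Ser-GCT, at 0.0179, 0.0212 and 0.0161 in the COPD model and 0.00868, 0.00896 and 0.0156 in the control. Gly-CCC-3, another glycine tRNA, overlapped, with ratios of 2.72, 2.73 and 2.89 in the COPD model and 2.42, 2.75 and 1.95 in the control. Glu-CTC-1, His-GTG-2, Lys-CTT-3 and Glu-TTC-2 formed the 4 pairs with lower ratios, each for the 32-mer over the 31-mer, and that of Glu-CTC-1 was 3.83, 3.94 and 1.34 in the COPD model against 5.01, 5.58 and 5.32 in the control.

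**Figure D5:**
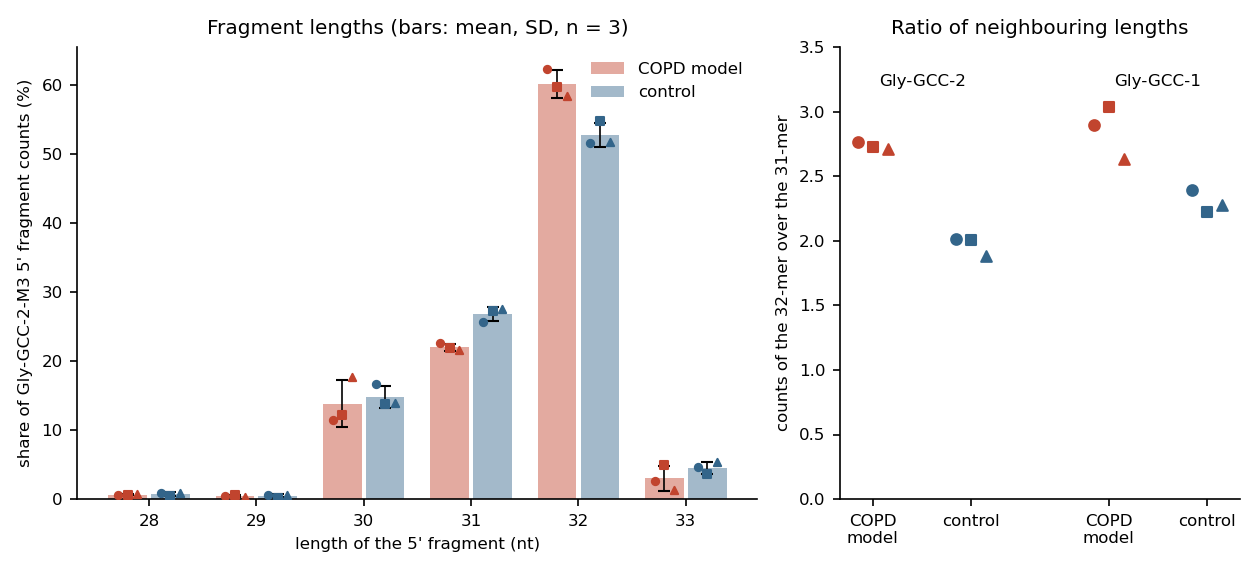
Left, share (%) of the Gly-GCC-2-M3 5′ fragment counts at lengths of 28 to 33 nt, COPD model left of control, with bars at the mean, error bars of 1 SD (n = 3 each) and a marker for each library. Right, counts of the 32-mer over those of the 31-mer by library for Gly-GCC-2 and Gly-GCC-1; the COPD model libraries lie at 2.71 to 2.76 for Gly-GCC-2 and the control libraries at 1.88 to 2.01.

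Across all nuclear tRNAs, the share of 5′ fragments ending on the base before the anticodon was 57.6%, 53.8% and 53.0% in the COPD model, against 48.3%, 48.2% and 47.2% in the control, and the share ending 1 base earlier was 22%, 21.2% and 20.7% in the COPD model, against 25.1%, 25.2% and 26.6% in the control. Gly-GCC makes up most of these counts, so these shares and the ratio above are largely the same measurement. The share ending on the first anticodon base, where tiRNA-5 end, was 7.25%, 10.8% and 6.73% in the COPD model and 7.86%, 12.9% and 9.61% in the control, and overlapped.

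The make-up of the libraries by structural type did not differ beyond the spread. edgeR called 0 of the 9 types (0%), and none had an unadjusted p under 0.05. Trailers had a summed change of 1.16 ± 0.57 on the log2 scale (SE; adjusted p = 0.590), which was 0.24 without COPD model 3 and 0.54 without the shallowest library of each group, with 580, 718 and 2817 CPM in the COPD model and 375, 1070 and 495 CPM in the control. The log2 changes were 0.09 ± 0.52 for tRF-5c, -0.11 ± 0.37 for tiRNA-5, -0.26 ± 0.39 for tRF-5b and -0.34 ± 0.32 for tRF-5a (SE). As a share of the listed counts, tRF-5c made up 87.8%, 84.0% and 83.0% in the COPD model and 86.3%, 71% and 85.3% in the control. tiRNA-5 made up 7.16%, 10.5% and 6.36% in the COPD model and 7.72%, 11.4% and 9.43% in the control. The smallest adjusted p over the 9 type shares was 0.771 in exact two-sided permutation tests. The 3′ fragments were few: the 11 tRF-3a summed to 137, 163 and 537 CPM in the COPD model and 109, 252 and 169 CPM in the control, and all 11 were highest in COPD model 3. Their log2 changes were above 0 in 11 of 11, against 110 of 191 over all tsRNAs. Several of them, such as tRF-58:75-Ala-CGC-1-M4 (21.3 CPM) and tRF-59:75-Gln-CTG-1-M7 (29.1 CPM), reached 20 CPM in COPD model 3 alone of the 9 lung libraries. The list leans on that library for these members, and so does the count of 11. Without COPD model 3 the log2 changes were above 0 in 3 of 11 tRF-3a, against 111 of 191. Without the shallowest library of each group they were above 0 in 5 of 10, against 87 of 184. The most abundant tRF-3a, of mitochondrial tryptophan tRNA, had 51.2, 68.0 and 153 CPM in the COPD model and 43.4, 64.0 and 56.0 CPM in the control (0.77 ± 0.60, SE, and 0.30 without COPD model 3), and that of smallest p, tRF-59:75-Gln-CTG-1-M7, had 10.2, 3.60 and 29.1 CPM in the COPD model and 3.17, 8.26 and 2.61 CPM in the control (1.67 ± 0.89, SE, and 0.84 without COPD model 3). The leading tRF-3b, tiRNA-3 and tRF-2, of mitochondrial tryptophan, histidine and histidine tRNA, had log2 changes of 0.38 ± 0.60, 0.50 ± 0.59 and -0.44 ± 0.59 (SE), which were 0.66, 0.29 and -0.08 without COPD model 3. The next most abundant member of each of these kinds, tRF-59:75-Gln-CTG-2, tRF-53:74-Gly-CCC-2-M4, a tiRNA of mitochondrial histidine tRNA and tRF-26:39-chrM.His-GTG, had log2 changes of 0.56 ± 0.64, 0.33 ± 0.74, 0.44 ± 0.68 and 0.28 ± 0.65 (SE).

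Measures over whole libraries overlapped between the groups. The mitochondrial share of the listed counts was 7.60% ± 3.03 in the COPD model and 10.4% ± 7.46 in the control (SD, n = 3 each; exact two-sided permutation p = 0.6). The mean fragment length weighted by counts was 30.9 ± 0.358 nt in the COPD model and 30.6 ± 0.596 nt in the control (exact permutation p = 0.5). The 5 most abundant tsRNAs held 84.6% ± 2.81 of the listed counts in the COPD model and 82.6% ± 1.86 in the control (exact permutation p = 0.3), and the listed tsRNAs made up 57.8% ± 8.13 of the mapped reads in the COPD model and 57.4% ± 13.2 in the control (exact permutation p = 1). The smallest p that 3 against 3 libraries allow is 0.1, and none of the 4 measures reached it.

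The enzymes that make and cut tRNA were read from the poly(A) RNA libraries of the same study, which the labels do not tie to the same mice. Of 43 genes in the list, 36 were in the table and 34 could be tested. limma on log2(FPKM + 1) called 0 of them, against 9 of 11765 genes (0.0765%), and 2 had an unadjusted p under 0.05, both above 0, against 748 of 11765 genes (6.36%). Elac2, the RNase Z that releases trailers, had 1.81, 3.45 and 4.32 FPKM in the COPD model, against 0.375, 0.919 and 1.86 FPKM in the control, and the lowest COPD model value lay below the highest control value. Its log2 change was 1.05 ± 0.48 (SE) with an adjusted p of 0.514 in limma's test. Rpp38, a subunit of RNase P, had 8.03, 8.29 and 6.5 FPKM in the COPD model, against 0.839, 2.62 and 5.56 FPKM in the control, with a log2 change of 1.28 ± 0.64 (SE). Trmt10c, a subunit of the mitochondrial RNase P (log2 change 1.06 ± 0.59, SE), and Alkbh1, a tRNA demethylase (0.82 ± 0.43, SE), had the next smallest p-values. Ang, which encodes angiogenin, had 13.2, 13.9 and 17.4 FPKM in the COPD model and 3.38, 10.7 and 12.7 FPKM in the control (0.83 ± 0.72, SE). Rnh1, the inhibitor that binds angiogenin, had 44.8, 48.2 and 44.6 FPKM in the COPD model and 5.14, 24.4 and 36.1 FPKM in the control (1.39 ± 0.79, SE). Dicer1, which cuts small RNA precursors, had a log2 change of 0.51 ± 0.44 (SE).

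The log2 change was above 0 for 33 of the 34 genes with a median of 0.69, against 11105 of 11765 genes and a median of 0.66. The groups did not overlap for 13 of the 34, all higher in the COPD model, where 23.7% of all genes did the same (0.314% were lower in every COPD model library). Mitochondrial transcripts took 23.9% to 30.04% of the summed FPKM in the COPD model libraries and 46.9% to 89.3% in the control libraries. Scgb1a1, the secretory protein of club cells, took 33% to 39.2% in the COPD model libraries and 1.02% to 19.0% in the control libraries. Sftpc, the surfactant protein of alveolar type 2 cells, was present in all 6, at 712 FPKM or more. The heart muscle gene Myl7 stood at 322 FPKM in control 2, against 5.81 to 43.1 FPKM in the other 5 libraries. The part of these in the values was not tested. After the summed FPKM of all genes other than Scgb1a1 and the mitochondrial ones was brought to the same total in each library, the median was 0.17 for the list and 0.14 for all genes, with 0 genes called.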

How the data were processed

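Per the labels' protocols, total RNA was extracted with Trizol, 1.5 µg was used per sample, and tsRNA samples were pretreated to remove modifications that hinder library making. FastQC, cutadapt, Bowtie, StringTie and the build mm10 are named in the submitters' processing notes, without versions or roles. The tsRNA table holds raw read counts per tsRNA, per the file headers. A second deposited table holds CPM, scaled by the authors to the mapped reads of each library, and counts over CPM gave totals of 893028 to 2679933 for the 6 libraries. The mRNA table holds FPKM computed by the authors, and its depth is unknown. Counts come from PCR reads, and a raw count by itself shows its counting error only. The p-values rest on the spread between libraries.

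Counts were tested with edgeR 4.0.16 (TMM, quasi-likelihood, filterByExpr) over all 9 tsRNA libraries without a replicate block, at an adjusted p of 0.05. Sums per type, parent tRNA and shared 5′ end used the same library sizes and factors. FPKM were tested with limma 3.58.1 on log2(FPKM + 1), with 1 FPKM in at least 3 libraries. DESeq2 1.42.0, limma on log2(CPM + 1) and left-out libraries were alternatives. The procedures were tested on simulated data. There edgeR recovered 84 of 100 tsRNA changes of 8-fold and 24 of 100 of 3-fold. limma recovered 92 of 100 mRNA changes of 32-fold and 11 of 100 of 4-fold. A lack of calls therefore does not exclude changes of the smaller sizes. Named tsRNAs were the 8 of smallest p in each direction, as edgeR called none, the 2 most abundant and the 1 of smallest p of each type. Named sums were every called one, the 4 of smallest p otherwise and the 6 most abundant, and named genes were Ang, Rnh1, Dicer1, Elac2 and the 4 of smallest p in the list. Further tsRNAs, named because their groups did not overlap or for their length or parent tRNA, were chosen after their values were seen. Members and lists were chosen with earlier results of these data known; the length pairs, and the models without the shallowest libraries, were added after their values were seen. Many tsRNAs match several tRNA genes (16 match more than 1 parent class), so their source is uncertain. Nuclear tRNA loci were not analysed here.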

Additional observations from a re-analysis of the deposited data

How the results depend on the processing

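The count of tsRNAs past the threshold was 0 in the main model, 3 with DESeq2, 1 with the replicate block, 0 to 3 with a library left out (3 without COPD model 1, COPD model 2 or control 2, 2 without BMSC-treated library 2), 2 at an adjusted p of 0.1 and 11 at an unadjusted p of 0.05; it was 0 with every other alternative tried. For parent classes it was 0, with 1 in DESeq2 and 0 to 1 with a library left out. For families it was 2, with 0 for library size alone, 1 for library totals, 1 with the replicate block, 1 with limma, 0 without the shallowest library of each group and 0 to 2 with a library left out. The family of iMet-CAT-1 trailers had log2 changes of 2.11 to 2.64 under the alternatives that lost its call, at adjusted p-values of 0.131 to 0.592. For length pairs the count was 0, with 1 for pairs of at least 10 counts, 1 with the 6 libraries, 1 without the shallowest and 0 to 2 with a library left out. Deviations of same-numbered libraries from their group means correlated at 0.44, -0.60 and -0.54, and those of the shallow COPD model 3 and control 2 at 0.63. As the shallow libraries stand apart in both groups, these values cannot tell whether the replicate numbers pair the libraries. With the replicate block the Thr-CGT-1 trailer family was at 1.86 with an adjusted p of 0.135, tRF-+1:T15-iMet-CAT-1 was the tsRNA called, at 0.0485, and the counts of calls moved as stated.

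Directions that turned belonged to values within 1 SE of 0 or to those set by 1 library. With a library left out, log2 changes ran from -0.26 to 2.99 for tRF-+1:T30-Thr-CGT-1, -0.11 to 2.84 for tRF-+1:T31-Thr-CGT-1, and -0.31 to 2.84 for both the Thr-CGT class and its trailer family. They ran from -0.027 to 0.67 for tRF-1:32-Gly-GCC-2-M3, -0.49 to 0.16 for tRF-1:31-Gly-GCC-2-M3, -0.14 to 0.55 for tiRNA-1:34-Glu-CTC-1, -0.094 to 0.66 for tRF-51:70-chrM.Trp-TCA and -0.016 to 0.82 for tiRNA-32:71-chrM.His-GTG. Types ran from -0.23 to 0.46 for tRF-5c and -0.43 to 0.16 for tiRNA-5. tRF-5c was -0.024 with DESeq2 and -0.13 without the shallowest libraries, and tiRNA-1:34-Glu-CTC-1 was -0.015 with library size alone. With a library left out, the difference in mitochondrial share ran from -5.15 to 1.48 percentage points, that in weighted length from -0.030 to 0.52 nt (0 for the unweighted mean over tsRNAs) and that in listed share from -7.03 to 5.64 points. The cause was not tested. No enzyme gene was called under any alternative.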
